A study of Homo sapiens with 6 samples.

Results

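The genes described here encode subunits of the phagocyte NADPH oxidase, and were chosen by symbol: CYBA and CYBB for the membrane part, NCF4 for the cytosolic part and RAC2 for the GTPase. All 4 were found among the 34114 genes of the count table, and all 4 passed the minimum for testing, a mean normalized read count of 10, as did 19575 genes in all. The data are messenger RNA libraries of 3 established human acute myeloid leukaemia lines, SKM-1, NOMO-1 and MOLM-14. Cells of each were transfected with a short hairpin RNA (shRNA), either scrambled as the control or directed at NCAM1, a cell adhesion molecule also called CD56, and were taken 72 h later. There was 1 library per line and condition, which gives 3 control and 3 knockdown libraries. No other agent or allele is named in the labels, and they do not say whether the cells of a library came from 1 culture. The table heads the knockdown columns of MOLM-14 and NOMO-1 with sh59 and that of SKM-1 with sh59a, and what the added letter means is not given in the labels.

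The phagocyte NADPH oxidase moves electrons from NADPH across a membrane to oxygen and makes superoxide, which neutrophils, monocytes and macrophages use against microbes. Its membrane part, cytochrome b558, pairs the catalytic chain gp91phox (CYBB, also NOX2) with p22phox (CYBA), and each chain is stabilised by the other. On activation cytosolic subunits, among them p47phox (NCF1) and p40phox (NCF4), move to the membrane with a GTP-bound RAC protein, mainly RAC2 in blood cells. Inherited loss of one of these subunits causes chronic granulomatous disease or related immune defects. CYBB expression is largely restricted to phagocytes and B cells and rises with myeloid maturation, whereas CYBA is expressed much more widely.

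The 2 genes of the cytochrome are shown with their promoters because their products work as a pair, while CYBB varied most and CYBA least over the 6 libraries. The set of RefSeq promoters used here, on GRCh38.p14, held an entry for 2 of the 4 genes, CYBA and CYBB. The 250 bases before the start are printed 5′ to 3′ on the strand of the gene, with matches to 4 short motifs in capitals. The CYBA stretch lies at chr16:88651054-88651303 on the minus strand, and the CYBB stretch at chrX:37779809-37780058 on the plus strand.
CYBA: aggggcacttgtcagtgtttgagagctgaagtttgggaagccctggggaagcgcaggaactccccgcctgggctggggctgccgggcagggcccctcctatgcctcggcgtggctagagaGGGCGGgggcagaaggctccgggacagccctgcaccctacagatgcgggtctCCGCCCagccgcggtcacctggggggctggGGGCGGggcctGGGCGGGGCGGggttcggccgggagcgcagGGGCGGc
CYBB: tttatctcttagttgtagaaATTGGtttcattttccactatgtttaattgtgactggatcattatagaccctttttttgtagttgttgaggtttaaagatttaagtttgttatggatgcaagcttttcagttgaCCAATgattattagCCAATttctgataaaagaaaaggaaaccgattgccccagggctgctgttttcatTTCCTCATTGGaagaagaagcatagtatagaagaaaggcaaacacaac

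The motifs were searched on both strands over 250 bases before and 50 after each start: GAGGAA, a core letter string of sites for the myeloid factor PU.1, CCAAT, the GC box GGGCGG and the TATA string TATAAA. The CYBA window held 6 matches to the GC box, 2 of which overlap, and none to the other strings. The CYBB window held 4 matches to CCAAT and 1 to GAGGAA, which reads TTCCTC on the gene's strand from position -48 and is followed directly by a CCAAT match at -42. Among 35116 promoter windows of the same length, 44.95% held the GC box, 34.6% held CCAAT, 27.9% held GAGGAA and 11.5% held TATAAA, so each string is common. The G and C content was 72.7% in the CYBA window and 37.7% in the CYBB window, against a median of 58.7% over all windows. These matches describe letters only, and no binding was measured.

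All 8 genes listed as expressed in myeloid leukaemia lines (among them CD33, PTPRC and SPI1) were at 100 normalized counts or more in every library. Not all of the 8 are confined to myeloid cells. The targeted gene, NCAM1, was lower in every knockdown library than in its control, by 124-fold in SKM-1, 3.73-fold in NOMO-1 and 3.17-fold in MOLM-14. The libraries held 41916991 to 47688779 gene-assigned reads. The SKM-1 pair stood apart: among genes with at least 100 normalized counts in 1 library of the line, 28.8% differed at least 2-fold between its 2 libraries, against 7.71% in NOMO-1 and 2.16% in MOLM-14. In SKM-1 the summed level of 16 monocyte and macrophage markers went from 25101 in the control to 232752 in the knockdown library. Most of this rise lay in S100A8, from 302 to 73055, and S100A9, from 1254 to 91617. The summed level of 11 granulocyte and promyelocyte markers went from 1016420 to 27972. Most of this fall lay in MPO, from 728824 to 6166. Every SKM-1 value below stands beside this difference. In bulk RNA, more cells of a type and more RNA per cell cannot be told apart.

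CYBA, whose product p22phox stabilises the catalytic chain, had a high and even level in all lines. Its normalized read count was 6797 in the control and 7077 in the knockdown library of MOLM-14, 4364 and 5603 in those of NOMO-1, and 7869 and 10199 in those of SKM-1. SKM-1 was the highest line and NOMO-1 the lowest, with no overlap between the 2 libraries of any line and those of another. The highest library was 2.34-fold above the lowest. The knockdown library was higher in each line, by 1.041-fold in MOLM-14 (95% interval of the counting error, 1.006 to 1.078), 1.284-fold in NOMO-1 (1.236 to 1.334) and 1.296-fold in SKM-1 (1.259 to 1.334). A higher value in all 3 lines was found for 14.6% of tested genes. As groups, the control and knockdown libraries overlapped for each of the 4 genes, and for all but 4.53% of tested genes.

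CYBB, the catalytic chain, had the widest range of the 4 genes. In MOLM-14 its normalized read count was 30.1 in the control and 18.8 in the knockdown library, which rest on 27 and 18 reads. In NOMO-1 it was 11586 and 14584, and in SKM-1 it was 324 and 2504. NOMO-1 was high, SKM-1 intermediate and MOLM-14 low, and no line overlapped another. Among the genes detected in a library, CYBB stood at percentiles 98.1 and 98.8 in NOMO-1 and at 45.5 and 41.2 in MOLM-14. The highest library was 776-fold above the lowest. In SKM-1 the knockdown library was 7.72-fold higher (6.88 to 8.70), at percentile 96.6 of the ratios in that line. In NOMO-1 it was 1.26-fold higher (1.23 to 1.29). In MOLM-14 the ratio was 0.624, with an interval of 0.324 to 1.18 that covers no difference.

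NCF4 encodes p40phox, which binds a phosphoinositide of phagosome membranes. Its normalized read count was 3289 and 3281 in the control and knockdown libraries of MOLM-14, 8302 and 9592 in those of NOMO-1 and 4605 and 7682 in those of SKM-1. MOLM-14 was the lowest line and NOMO-1 the highest, with SKM-1 between them and no overlap. The ratio of knockdown over control was 0.998 in MOLM-14 (0.948 to 1.049), where its direction turned with the scaling of the libraries, 1.155 in NOMO-1 (1.123 to 1.189) and 1.668 in SKM-1 (1.609 to 1.730). An antisense gene, NCF4-AS1, shares exon bases with NCF4 on the opposite strand. These 2 genes cannot be told apart where counting ignores strand, but the highest library of NCF4-AS1 held only 27.5 normalized counts.

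RAC2, the GTPase of the complex in blood cells, was the 1 of the 4 genes with ratios on both sides of 1 beyond the counting error. Its normalized read count was 9845 in the control and 8534 in the knockdown library of MOLM-14, 12730 and 9071 in those of NOMO-1, and 5145 and 9037 in those of SKM-1. The 3 knockdown libraries lay close together, between 8534 and 9071, whereas the 3 controls ran from 5145 to 12730. The ratio was 1.756 in SKM-1 (1.698 to 1.817), 0.713 in NOMO-1 (0.694 to 0.731) and 0.867 in MOLM-14 (0.841 to 0.893). These intervals lie above 1 in SKM-1 and below 1 in the other two. Libraries of NOMO-1 and SKM-1 did not overlap for RAC2, while those of MOLM-14 overlapped with both.

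**Figure D1:**
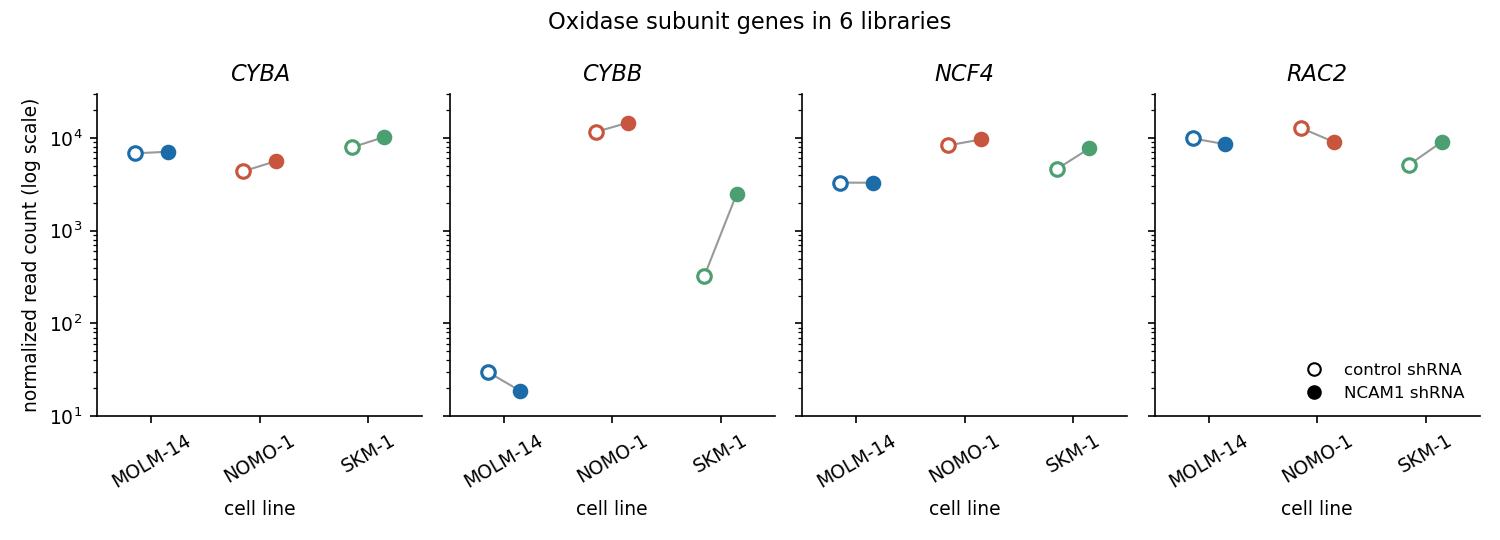
Normalized read count (log scale) of CYBA, CYBB, NCF4 and RAC2 in the 6 libraries, by cell line. Open points are control libraries, filled points knockdown libraries, and a line joins the 2 libraries of a cell line. CYBB spans 18.8 to 14584, while CYBA, NCF4 and RAC2 stay between 3281 and 12730.

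Across the 3 lines, none of the 4 genes passed the test of knockdown against control. In limma with Benjamini-Hochberg adjustment over 19575 genes, on log2(normalized count + 1) with the line as a block, the mean log2 difference of CYBA was 0.26 ± 0.18 (SD, n = 3 lines; SE 0.16, adjusted p = 0.779). Its 95% interval ran from -0.16 to 0.68. The mean was 0.88 ± 1.86 for CYBB (95% interval -0.995 to 2.75), 0.31 ± 0.38 for NCF4 (-0.22 to 0.85) and 0.039 ± 0.68 for RAC2 (-0.72 to 0.80), with limma adjusted p of 0.783, 0.779 and 0.974. All 4 means were positive, with a median of 0.29, against -0.0072 over all genes tested, of which 9661 had a positive and 9914 a negative mean. The share of tested genes called was 0%, with 877 genes (4.48%) at an unadjusted p under 0.05. On reads recovered from the table, the quasi-likelihood test of edgeR called 0 genes and DESeq2 called 43, none of them 1 of these 4. For the 4 genes the exact two-sided sign-flip test over lines gave p of 0.25, 0.75, 0.5 and 1, where 0.25 is the smallest p that 3 lines allow. These p values measure the spread between lines, each line standing as 1 replicate. Without the SKM-1 pair the mean was -0.16 for CYBB and -0.35 for RAC2, so both signs rest on SKM-1. For NCF4 it stayed positive, between 0.10 when SKM-1 was left out and 0.47 when MOLM-14 was.

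Within single lines there is no replicate and no test, and the ratios can only be set beside those of other genes. In SKM-1, 1 of the 4 genes, CYBB, was at least 2-fold higher in the knockdown library, where 13.9% of genes with at least 100 normalized counts were. In NOMO-1, 0 of 4 were at least 2-fold higher or lower, with 7.71% of all genes. In MOLM-14 it was 0 of the 3 that reached 100 normalized counts, with 2.16% of all genes. RAC2 lay at percentile 82.5 of the ratios in SKM-1, 17.6 in NOMO-1 and 18.5 in MOLM-14. In the same order CYBA lay at percentiles 69.2, 80.6 and 61.7, and NCF4 at 80.6, 68.9 and 49.3. CYBB in NOMO-1 lay at percentile 78.8. Apart from CYBB in SKM-1, these ratios thus lay between percentiles 17.6 and 82.5 of their line.

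**Figure D2:**
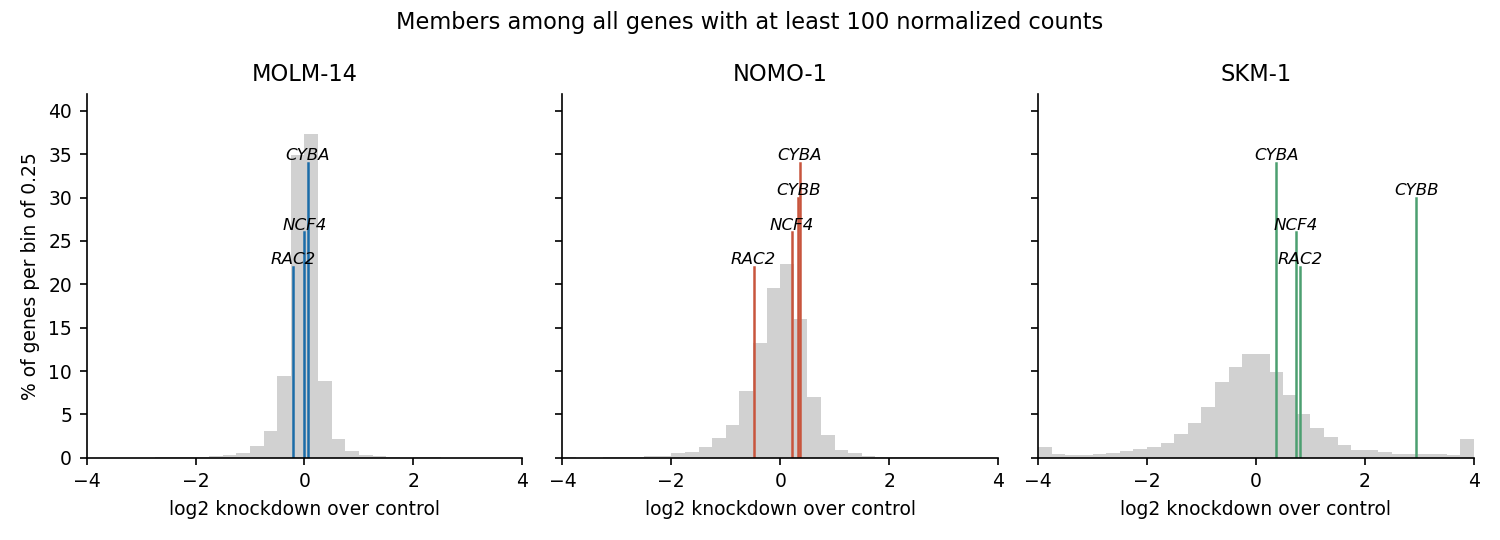
Share of genes (%) per bin of 0.25 in the log2 ratio of knockdown over control, for genes with at least 100 normalized counts in a library of the line (12614 genes for MOLM-14, 13278 for NOMO-1 and 13510 for SKM-1), with ratios beyond 4 in size put in the end bins. Coloured lines mark CYBA, CYBB, NCF4 and RAC2, whose heights have no meaning, and CYBB is left out of MOLM-14, where it had 30.1 normalized counts at most. CYBB in SKM-1, at 2.95, is the marked gene farthest from 0.

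The lines themselves were then compared, with the 2 libraries of a line as its samples and knockdown state in the fit. CYBB was 524-fold lower in MOLM-14 than in NOMO-1, a log2 difference of -9.03 (SE 0.88, limma adjusted p = 0.00761). NCF4 was 2.72-fold lower in MOLM-14 than in NOMO-1, a log2 difference of -1.44 (SE 0.25, limma adjusted p = 0.0296). CYBA, at 0.49, and RAC2, at -0.23, were not called (limma adjusted p of 0.179 and 0.720). Calls needed an adjusted p under 0.05 and at least 2-fold, which 13.3% of tested genes met, 8.01% with the lower level in MOLM-14. The 2 of 4 called here are to be read against these shares. The call of CYBB was lost when either NOMO-1 library was left out. That of NCF4 was lost without any 1 library of MOLM-14 or NOMO-1, with no filter on low counts and without a variance trend. For these calls the SE comes from 2 residual and 2.81 prior degrees of freedom, the latter borrowed from other genes. The residual spread is how far the knockdown difference varied between the 3 lines, SKM-1 included. It is not a spread between replicates of MOLM-14 or of NOMO-1, and the p values do not measure one. The same holds for the comparison of SKM-1 with the other lines. The labels do not say that the libraries of a line were separate cultures beyond their shRNA.

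For SKM-1 against the mean of the other 2 lines, 15.6% of tested genes were called and 0 of the 4 genes were. The log2 difference was 0.61 for CYBA (95% interval 0.17 to 1.06), 0.67 for CYBB (-1.32 to 2.65), 0.14 for NCF4 (-0.43 to 0.70) and -0.54 for RAC2 (-1.35 to 0.27). Limma adjusted p values were 0.0748, 0.583, 0.703 and 0.290. The value for CYBB depends on which SKM-1 library stands for the line: it was 2.22 without the control library and -0.88 without the knockdown library. For RAC2 it was 0.039 and -1.12 in the same order, so that RAC2 was lower in SKM-1 when only its control library was used. Each of these fits keeps 1 SKM-1 library, so only the sizes are given and no call is read from them. In order of level, CYBB ran NOMO-1, SKM-1, MOLM-14, NCF4 ran the same way, CYBA ran SKM-1, MOLM-14, NOMO-1, and RAC2 ran NOMO-1, MOLM-14, SKM-1. Libraries of neighbouring lines in the RAC2 order overlapped. For each of CYBA, CYBB and NCF4, no 2 lines overlapped, which held for 71% of tested genes between MOLM-14 and NOMO-1, 63.2% between MOLM-14 and SKM-1 and 54.5% between NOMO-1 and SKM-1.

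The other subunits and partners of the oxidase give the context for these 4 genes. NCF1 (p47phox), the organiser that carries the cytosolic complex to the cytochrome, had a normalized read count of 3350 in the control and 2007 in the knockdown library of MOLM-14. It was at 6599 and 2262 in NOMO-1, and at 196 and 10996 in SKM-1. The knockdown library was thus 1.67-fold lower in MOLM-14 (1.58 to 1.77), 2.92-fold lower in NOMO-1 (2.79 to 3.06) and 56.1-fold higher in SKM-1 (48.6 to 65.0). NCF1 has near-identical copies, NCF1B and NCF1C, between which reads can be split. The sum of the 3 was 6219 and 3709 in MOLM-14, 11118 and 4136 in NOMO-1 and 369 and 21055 in SKM-1, ratios of similar size to those of NCF1 alone. The ratio of NCF1 in SKM-1 lay at percentile 99.6 of that line. NCF1 thus had a larger SKM-1 ratio than CYBB, and NCF4, its partner in the cytosolic complex, a smaller one. Counting intervals of the 3 ratios did not overlap, but these differences between genes have no replicate.

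Among the regulators, NRROS, which promotes degradation of gp91phox, had less RNA after knockdown in each line, as did 15.9% of tested genes. MOLM-14 had normalized read counts of 3466 in the control and 1930 in the knockdown library, NOMO-1 of 6039 and 3823, and SKM-1 of 5024 and 2139. The mean log2 difference was -0.91 ± 0.29 (SD, n = 3 lines). It was not called (limma adjusted p = 0.779), though its unadjusted limma p, 0.00538, was the smallest of the partners. C17orf62, the table's symbol for the chaperone Eros (CYBC1) that cytochrome b558 needs, was at 5784 and 5663 in MOLM-14, 10262 and 7777 in NOMO-1 and 4563 and 5345 in SKM-1. HVCN1, the proton channel that balances charge while the oxidase works, was at 1890 and 973, 2049 and 866, and 182 and 941 in the same order. It was lower in the knockdown library of 2 lines and 5.17-fold higher (4.41 to 6.10) in that of SKM-1. RAC1, the widely expressed relative of RAC2, was at 4663 and 4573, 5479 and 6572, and 4908 and 8552. RAP1A, a GTPase that copurifies with the cytochrome, was at 3643 and 3867, 4303 and 4898, and 3393 and 5602. Of these 6 partners, 4 had a positive mean and 2 a negative one, and limma called 0.

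**Figure D3:**
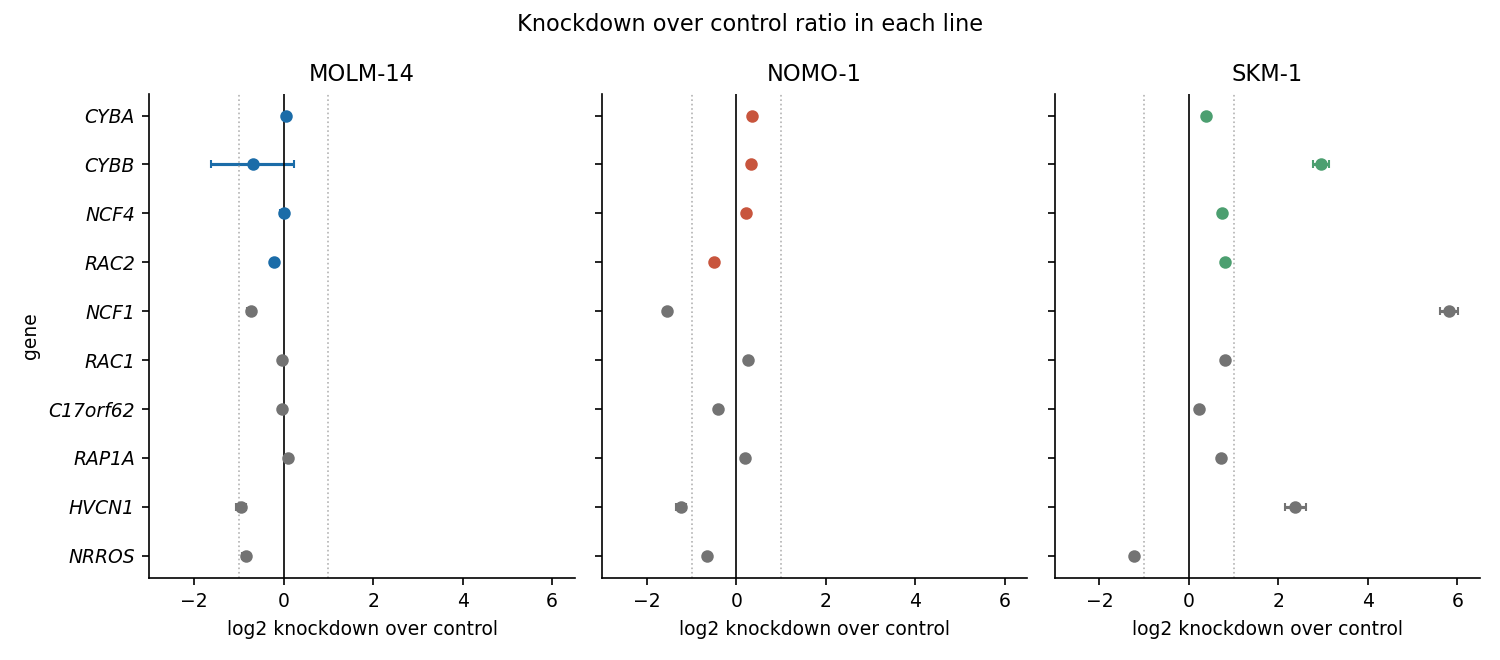
Log2 ratio of knockdown over control in each line for the 4 genes (coloured) and 6 partners (grey), with 95% intervals of the counting error. Dotted lines mark a 2-fold difference. NCF1, CYBB and HVCN1 lie far to the right in SKM-1, at 5.80, 2.95 and 2.36, while NRROS lies to the left of 0 in all 3 lines.

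Levels of different genes were compared per kb of exon, with exon lengths from a GRCh38 annotation while the reads had been aligned to hg19. The length of a gene is the union of exons over its annotated transcripts, 2171 bases for CYBA and 4324 for CYBB. The transcripts in use can be shorter, so the order of genes and the ratios between them depend on these lengths. The fold by which such a ratio differs between libraries does not depend on them. On this scale the 5 subunit genes compared (the 4 genes and NCF1) lay within 3.13-fold of each other in the NOMO-1 control library, from CYBA at 2010.1 normalized counts per kb to RAC2 at 6296. In the NOMO-1 knockdown library they lay within 3.61-fold. In MOLM-14 the highest, RAC2, was 699-fold above the lowest, CYBB, in the control and 971-fold in the knockdown library. In SKM-1 CYBB was the lowest too, 48.4-fold below CYBA in the control and 13.6-fold below NCF1 in the knockdown library. CYBB was thus the lowest of the 5 in 4 of 6 libraries, those of MOLM-14 and SKM-1. These lengths cannot show whether transcripts of both cytochrome chains were of like level in NOMO-1. The CYBB over CYBA ratio per kb was highest in that line, at 1.33 in the control and 1.31 in the knockdown library. That ratio was 0.0207 and 0.123 in SKM-1, 5.96-fold apart, and 0.00222 and 0.00133 in MOLM-14. NCF4 over CYBA was 2.52 and 2.26 in NOMO-1, 0.774 and 0.997 in SKM-1 and 0.640 and 0.613 in MOLM-14. RAC2 over RAC1 was above 1 in every library, at 2.49 and 2.20 in MOLM-14, 2.73 and 1.62 in NOMO-1 and 1.23 and 1.24 in SKM-1.

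**Figure D4:**
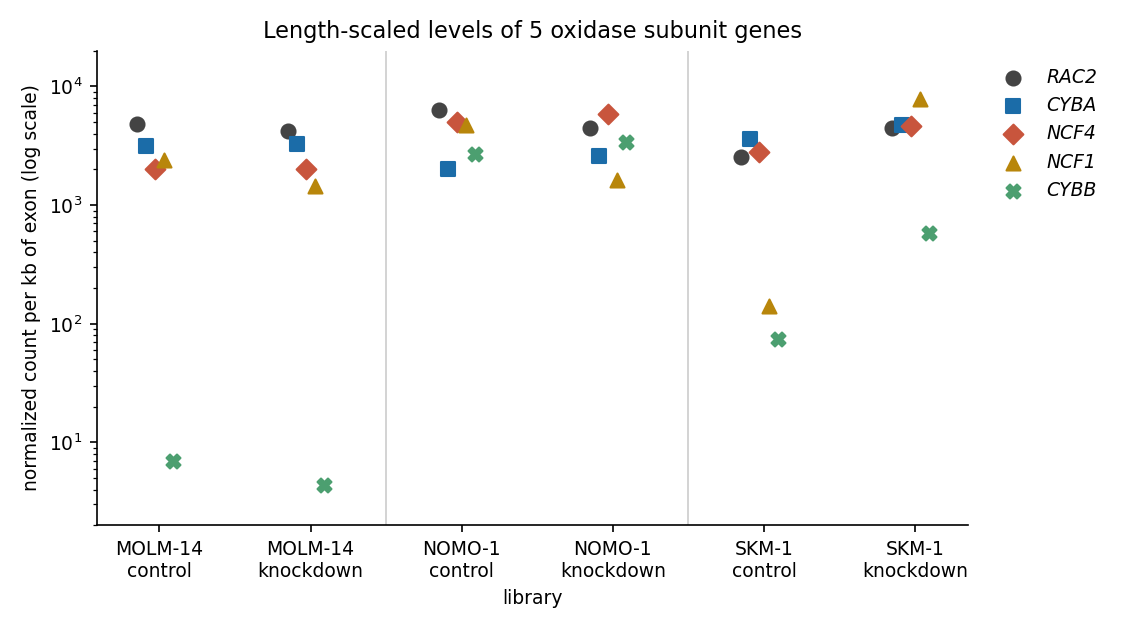
Normalized read count per kb of exon (log scale) of 5 oxidase subunit genes in each library. Each marker is 1 gene in 1 library. The genes lie within 3.13-fold in the NOMO-1 control, while CYBB lies below the others in both libraries of MOLM-14 and of SKM-1.

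Other NADPH oxidases were low. Of 10 genes listed, the catalytic oxidases and their maturation and adaptor factors, 8 were in the table and 4 had a mean of 10 or more: NOX1, DUOX1, DUOX2 and NOXA1. NOX1, an oxidase of colon epithelium, had 11.02 to 51.8 normalized counts. DUOX1 was at 49.1 to 59.9 except in the SKM-1 knockdown library, where it was at 184. NOXA1, an activator subunit of NOX1, was at 137 and 140 in MOLM-14, 1386 and 1071 in NOMO-1 and 697 and 807 in SKM-1.

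Genes around the oxidase were described by 5 lists, and limma called 0 genes in each. The lists were chosen with earlier results of these data known, so counts within them are descriptions only. Of 18 regulators of RAC proteins, 8 had a positive and 10 a negative mean, with a median of -0.064. PAK2, a kinase activated by RAC, was lower after knockdown in each line, at -0.48 ± 0.22 (SD, n = 3 lines). A lower value in all 3 lines was found for 15.9% of tested genes. DOCK2, the main exchange factor for RAC2 in leukocytes, had log2 ratios of -0.32 for MOLM-14, -0.75 for NOMO-1 and 0.12 for SKM-1, the same signs as RAC2. TIAM1 had ratios of -0.52, 0.38 and -2.20, and PREX1, an exchange factor of neutrophils, was near 0 in 2 lines and at 1.47 in SKM-1. Of 14 kinases that phosphorylate or signal to the oxidase, 6 had a positive and 8 a negative mean, with a median of -0.020. PIK3CG, the gamma isoform of PI3-kinase, had a mean of -0.48 ± 0.36 and PRKCA, a protein kinase C, one of -0.58 ± 0.75. IRAK4, a kinase of Toll-like receptor signalling, was at 0.24 ± 0.22 and SYK, which signals from Fc receptors, at -0.24 ± 0.31.

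Of 14 phagocyte receptors, 10 had a positive mean, and the median was 0.34. In SKM-1, 8 of the 13 at 100 normalized counts or more in either library were at least 2-fold higher in the knockdown library. The number at least 2-fold lower was 0. Of all genes at that level, 13.9% were higher and 14.9% lower to that extent. Because the receptors were listed with earlier results of these data known, this count is no separate support. FPR2, a receptor for formyl peptides that switch the oxidase on, went from 410 to 7335 there, and ITGAM, the alpha chain of complement receptor CR3, from 1757 to 20862. In NOMO-1 ITGAM was at 10102 and 7007, and in MOLM-14 at 651 and 1144. FCGR1A, the high-affinity IgG receptor, was lower after knockdown in each line, with a mean of -0.55 ± 0.18 (SD, n = 3 lines). TLR4, the receptor for lipopolysaccharide, was higher in all 3, at 0.498 ± 0.23. Over all tested genes, 15.9% were lower and 14.6% higher in all 3 lines.

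Of 14 transcription factors linked to oxidase genes or to myeloid maturation, 9 had a positive mean, with a median of 0.059. SPI1, which encodes PU.1, was at 6109 and 4791 in MOLM-14, 7522 and 5122 in NOMO-1 and 5970 and 9577 in SKM-1. IRF8, a partner of PU.1 at the CYBB gene, was at 36219 and 22926 in MOLM-14, 7512 and 6601 in NOMO-1 and 2005 and 111 in SKM-1. The part of SPI1 and IRF8 in the CYBB levels was not tested. CEBPB, a factor of the C/EBP family active in monocytes, was at 559 and 429 in MOLM-14, 665 and 692 in NOMO-1 and 486 and 2031 in SKM-1. PRDM1 and SATB1, both of which can repress genes, had mean log2 differences of 1.11 ± 1.06 and -0.47 ± 0.66 (SD, n = 3 lines).

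Enzymes that make NADPH, remove oxidants or use the oxidase's products formed the last list. Of 22 measured, 17 had a positive mean and 10 were higher in all 3 lines, with a median of 0.40, and 1 was lower in all 3. Over all genes tested, 2863 of 19575 were higher in all 3 lines and 3121 were lower in all 3. NQO1, a quinone reductase controlled by NRF2, went from 319 to 498 in MOLM-14, from 219 to 877 in NOMO-1 and from 441 to 2243 in SKM-1. Its mean log2 difference was 1.66 ± 0.90 (SD, n = 3 lines; unadjusted p = 0.00877 and adjusted p = 0.779 in limma). PRDX1, which reduces peroxides, was at 0.75 ± 0.54, SOD1, which turns superoxide into hydrogen peroxide, at 0.59 ± 0.47 and GCLC, which starts glutathione synthesis, at 0.475 ± 0.36. MPO, myeloperoxidase, which uses that peroxide to make hypochlorous acid, went the other way in SKM-1, from 728824 to 6166 normalized counts. It was at 1398 and 3922 in MOLM-14 and at 53986 and 15869 in NOMO-1.

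**Figure D5:**
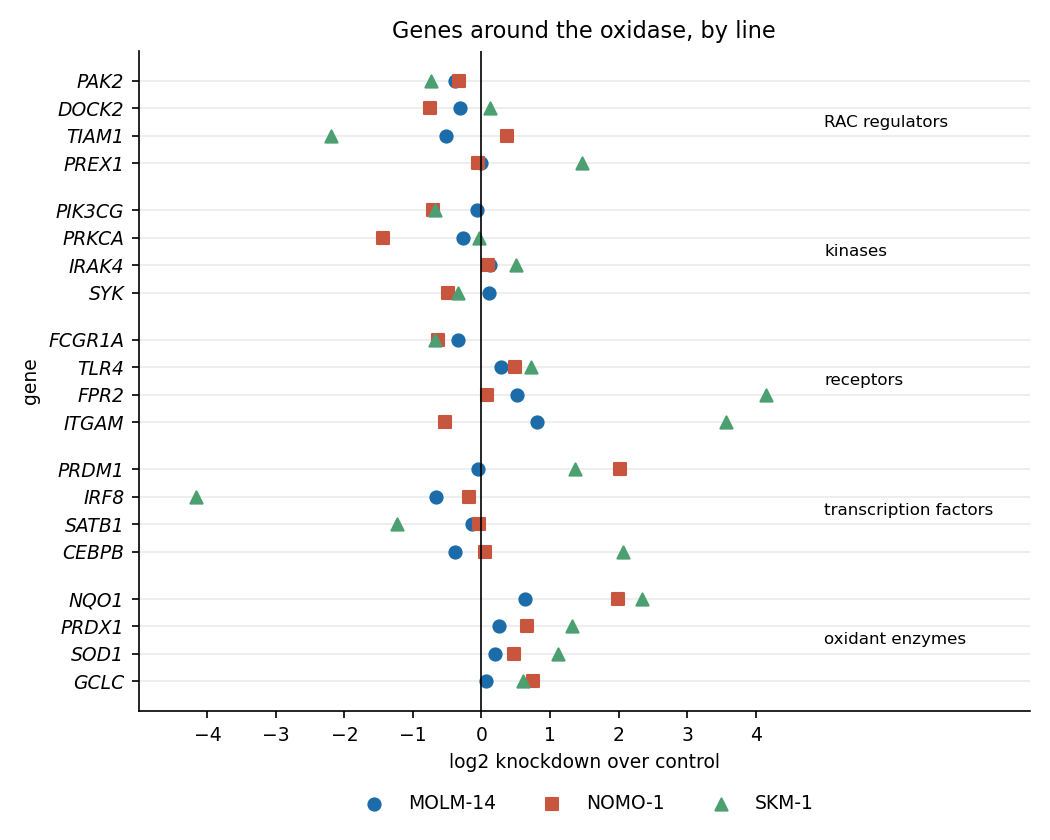
Log2 ratio of knockdown over control in each line for the 4 genes with the smallest limma p of 5 lists around the oxidase. Each marker is 1 line, with 1 library per condition and no error bar. FPR2 and ITGAM in SKM-1 lie far to the right, at 4.16 and 3.57, and IRF8 in SKM-1 far to the left, at -4.16, while NQO1, PRDX1, SOD1 and GCLC lie to the right of 0 in all lines.

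Markers of monocytes were higher beside CYBB and NCF1 in the SKM-1 knockdown library. Of 12 monocyte and macrophage markers at 100 normalized counts or more there, 8 were at least 2-fold higher in the knockdown library. The number at least 2-fold lower was 0, beside the same 13.9% and 14.9% of all genes at that level. ITGAM and FCGR1A also stand among the phagocyte receptors, so the counts of these lists are not separate. The markers, too, were listed with earlier results of these data known. S100A8 went from 302 to 73055 and S100A9 from 1254 to 91617, while FCGR1A went from 2673 to 1667 and MS4A6A from 365 to 286. Of 7 granulocyte and promyelocyte markers at that level, 5 were at least 2-fold lower, where 14.9% of all genes at that level were. CD14, a defining monocyte marker, stayed at 3.05 to 27.4 normalized counts in all 6 libraries and CD68 at 0.918 to 10.4. In MOLM-14, with the least CYBB, S100A12 and FCN1 had 0 reads in the knockdown library and 1.115 normalized counts each in the control. Other markers were present there: of 16, 9 reached 100 normalized counts in the control and 8 in the knockdown library. The highest was LYZ, at 6865 and 3407. VCAN, at 700 and 203, was above its 6.61 and 1.82 in NOMO-1, the line with the most CYBB. Over lines, the summed monocyte markers ranged from 13644 to 69905 in control and from 8761 to 232752 in knockdown libraries. Their part in the oxidase values was not tested.

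The genes with profiles most like each of the 4 were taken as those with the smallest root mean square difference of centred log2 profiles over the 6 libraries, among 11886 genes with a mean of at least 100. For CYBA these were L3MBTL2, SGPL1 and COPS7A, at 0.023, 0.057 and 0.061, where CYBA's own profile had a root mean square of 0.38. For CYBB they were PARM1, DMD and BTNL9, at 0.36, 0.45 and 0.58, beside 3.80 for CYBB itself. PARM1 had 0 reads in both MOLM-14 libraries, and DMD and BTNL9 1 read in each. For NCF4 they were CCDC69, TBC1D19 and CASD1, at 0.092, 0.104 and 0.110, beside 0.63. For RAC2 they were HDAC7, ZNF518A and RSF1, at 0.098, 0.104 and 0.104, beside 0.39. No subunit or partner of the oxidase was among these 12 genes. With 6 libraries of 3 lines, which share their line, many genes can have a close profile, and the likeness is a description only.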

How the data were processed

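Per the submitters' processing notes, the tools were HTSeq 0.6.1p1, STAR, bcl2fastq 1.8.4 and DESeq2 1.12.4, with genome build hg19. Settings, strand use and annotation are not given in the sources. The deposited signal values are reads counted per gene, each divided by the authors by a size factor of its library. The authors also deposited transformed log2 values, which served as an alternative. Dividing by the step of each column gave whole reads for 100% of values (tolerance 0.001), so depth was known, at 41916991 to 47688779 reads. Intervals of ratios are exact conditional 95% intervals on those reads and cover counting error only.

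Two-sided tests used limma 3.58.1 with R 4.3.3 (lmFit, then eBayes with a trend) for 19575 genes whose normalized count averaged 10 or more. It was fitted on log2(normalized count + 1), with cell line and knockdown state as terms, and adjusted by Benjamini-Hochberg. Fold changes on this scale understate those of low genes. The fit has 2 residual and 2.81 prior degrees of freedom. The block comes from the cell line, and deviations from the group means correlated at 0.850, 0.863 and 0.710 within MOLM-14, NOMO-1 and SKM-1. Exon lengths, each a union over the annotated transcripts of a gene, and overlaps came from GENCODE on GRCh38 by gene identifier. Promoter sequences came from RefSeq. Of each list around the oxidase up to 4 genes with the smallest p were named, and every partner gene. SPI1, MPO and the monocyte markers were named outside that rule, after their values were seen. Some genes of the lists are not reported here. The members and gene lists were chosen with earlier results of these data known. Alternatives were 2 other pseudocounts, other filters, total-count, TMM and other scalings, the authors' log2 values, no block, other eBayes settings, edgeR 4.0.16, DESeq2 1.42.0 and leaving out lines or libraries.

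On simulated data for the knockdown comparison over 19575 genes, 0 of 67 genes with a true 2-fold change were found by limma, as were 15 of 67 with 4-fold and 38 of 66 with 8-fold, and no gene was called falsely. For edgeR the numbers were 2, 23 and 43, with 4 false calls. The simulation drew each gene independently, with 1 dispersion per gene in all lines and the same change in each line. In the data the pairs were unlike, with 28.8% of genes at least 2-fold apart in SKM-1 and 2.16% in MOLM-14. The numbers found and falsely called may therefore not carry over to these data.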

Additional observations from a re-analysis of the deposited data

Results flagged for a closer look

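Of the 4 described genes and their 6 partners, 4 were higher in the knockdown library of SKM-1 and lower in that of NOMO-1. In each case this was beyond the counting interval, and RAC2 was the only described gene among them. The share of all genes with such a pattern was not counted, so it cannot be called particular to these genes. In SKM-1, 28.8% of genes with at least 100 normalized counts differed at least 2-fold. The difference between the lines was not tested, since each line has 1 pair of libraries. For RAC2 the log2 ratio in SKM-1 was 1.30 above that in NOMO-1. For NCF1 the gap was 7.35, for HVCN1 3.61 and for C17orf62 0.63. The ratio in MOLM-14 was on the side of NOMO-1 for RAC2, NCF1 and HVCN1, while its counting interval covered no difference for C17orf62.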

How the results depend on the processing

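The knockdown differences of CYBA and NCF4 kept a positive sign and stayed uncalled under every alternative run. The line is the replicate block. With no replicate block limma gave the same mean differences (CYBB 0.88) and still called no gene (141 had an unadjusted p under 0.05), and the calls of the described genes were as before. DESeq2 called 43 genes (11 higher, 32 lower). With 1 line left out, knockdown differences ranged from 0.21 to 0.37 for CYBA, 0.10 to 0.47 for NCF4, -0.16 to 1.64 for CYBB, -0.35 to 0.30 for RAC2, -1.14 to 2.53 for NCF1, -0.22 to 0.099 for C17orf62 and -1.10 to 0.70 for HVCN1. Those of CYBB, RAC2, NCF1 and HVCN1 turned without SKM-1, and C17orf62 turned without NOMO-1. HVCN1 was also negative in edgeR (-0.063) and DESeq2 (-0.064). With 1 library left out, where the lone library of a line is assumed to vary like the others, SKM-1 against the other lines gave 0 to 5386 called genes (0 without either NOMO-1 library), CYBB -0.88 to 2.22, NCF4 -0.18 to 0.45 and RAC2 -1.12 to 0.039. MOLM-14 against NOMO-1 gave 0 to 4884 called genes (0 without either NOMO-1 library), RAC2 -0.63 to 0.17, and CYBB -10.18 to -7.89, not called without the NOMO-1 control (adjusted p = 0.148) or knockdown library (adjusted p = 0.125). NCF4 was at -1.68 to -1.20 there. It was at -1.44 and not called with no filter (adjusted p = 0.0527) and with eBayes without trend (adjusted p = 0.0679). With the authors' log2 values, 146 genes in MOLM-14 and 594 in NOMO-1 were at least 2-fold apart, against 272 and 1024. With total-count scaling the MOLM-14 log2 ratios of NCF4 (0.030), RAC1 (0.0058) and C17orf62 (0.0031) turned positive, as did NCF4 with TMM (0.0047). Other scalings shifted ratios by 0.056 at most. The cause of these changes was not tested, beyond fewer samples or genes. Depth limits CYBB in MOLM-14, with 27 and 18 reads.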

Other observations

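Markers of cell types other than myeloid cells, summed per library, were below those of myeloid cells. The 8 genes listed for myeloid leukaemia lines summed to 52015 to 770031 normalized counts in control and 49906 to 86473 in knockdown libraries. Single genes of the other lists were not all low. CD3D was at 3789 in the NOMO-1 control, and KRT8 at 2961 in the NOMO-1 knockdown library. PAX5 was at 1194 in the MOLM-14 control. T and NK cell markers summed to 2483 to 6084 normalized counts in control and 829 to 4426 in knockdown libraries, and B cell markers to 566 to 1335 and 139 to 2835. Erythroid markers summed to 384 to 1155 and 165 to 957, megakaryocyte markers to 127 to 987 and 138 to 565, and epithelial and stromal markers to 393 to 2627 and 679 to 3578. Genes raised in leukaemias with KMT2A fusions, HOXA5, HOXA7, HOXA9, HOXA10, MEIS1 and PBX3, summed to 6112 to 18782 in control and 5300 to 20908 in knockdown libraries.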
